A study of Mus musculus with 6 samples.

Results

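The genes described here are 35 genes of fatty acid oxidation and of the response to PPAR-alpha, chosen by platform gene symbol among 19057 named genes on the array. They include the regulators Ppara and Ppargc1a, genes of fatty acid uptake and storage, the enzymes that activate, carry and break down fatty acids, and acyl-CoA thioesterases. RNA of the kidney cortex was taken from 3 captopril and 3 control mice, all male C57BL6, and each mouse had its own Illumina bead array. Captopril blocks the enzyme that makes angiotensin II, and the captopril mice had it in their drinking water for 7 days (10 mg/kg/day), starting at an age of 11 weeks. The control mice are labelled only as control, and all 6 mice are labelled as aged 12 weeks. The series title frames the question as which genes the inhibitor induces in the cortex, and bulk cortex cannot separate fewer cells of a type from less RNA per cell.

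Fatty acids are activated to acyl-CoA, carried into mitochondria on carnitine, and shortened in a repeated spiral of dehydrogenation, hydration, dehydrogenation and thiolysis. Peroxisomes run a parallel spiral on very long and branched chains, and thioesterases release free fatty acid from acyl-CoA. PPAR-alpha is a lipid-activated nuclear receptor that binds DNA with a retinoid X receptor and induces genes of both organelles, and the proximal tubule, the main cell mass of the cortex, relies on fatty acid oxidation for its energy.

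No gene of this group passed the test for a difference between captopril and control cortex. Of the 35 genes, 34 had a named probe and 30 were tested, with 65 probes in all and 49 tested. In limma 0 of 30 genes passed an adjusted p of 0.05, against 0 of 9718 named genes tested (0%) and 3 of 16500 probes (0.0182%). At an unadjusted p under 0.05 there were also 0 of the 30 genes, against 3.69% of all named genes tested, with 1.91% higher and 1.78% lower in captopril cortex. The adjusted p-values of the 30 genes lay between 0.995 and 0.999 in limma. Their log2 differences, captopril minus control, ran from -0.29 to 0.46 with a median of -0.04, where the median of all named genes was -0.003. The value was higher in captopril cortex in 11 genes and lower in 19, or 63.3%, where 50.9% of all named genes were lower.

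The precision was that of 3 mice per group, with standard errors of 0.12 to 0.33 on the log2 scale. The 95% interval lay wholly within 0.5 of zero, a 1.41-fold change either way, in 15 of the 30 genes and in 52.2% of all named genes. It lay within 1, a 2-fold change, in 29 of the 30, and the gene whose interval reached further was Ppargc1a. For each gene, any difference within its interval remains compatible with these data, and the missed threshold does not show that the groups were alike.

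The promoter windows, taken from RefSeq on build GRCm38.p6, reach from 250 bases before to 50 after each gene's start, and 31 of the 35 genes matched by symbol. The PPAR element, 2 copies of AGGTCA on 1 strand with 1 base between them, was looked for on both strands. Its strict form lay in 0 of their 34 windows and in 13 of 32851 windows in all (0.0396%). A looser form, which has AGGNCA in both copies and takes in the strict one, lay in 1 of the 34 windows and in 125 of all windows (0.381%). That window belonged to Fabp1, the liver fatty acid-binding protein and a classical PPAR-alpha target in liver. The single copy AGGTCA, which every strict element also holds, lay in 11 of the 34 windows (32.4%), in 10 genes, against 16.3% of all windows. Acot3 entered that count by windows from different starts, with the match at positions 19 and 12 after the start. Whether these are the same site was not examined. A match describes letters in the window and no binding was measured. The stretches below are shown because Fabp1 carries the only looser element of the group, and because Hadha and Hadhb, which share theirs, had differences of opposite sign. The interval of each of these differences held zero. The stretch of Fabp1 is chr6:71199779-71199878 on the plus strand, with the looser element, which is on the opposite strand and begins 67 bases upstream of the start, in capitals. The other, chr5:30155003-30155230 on the plus strand, holds the 228 bases that the windows of Hadha and Hadhb share, since these genes lie head to head and are read away from each other. It holds no AGGTCA, so nothing in it is in capitals.
Fabp1: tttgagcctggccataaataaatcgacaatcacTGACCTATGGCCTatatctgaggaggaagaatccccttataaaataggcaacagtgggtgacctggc
Hadha and Hadhb: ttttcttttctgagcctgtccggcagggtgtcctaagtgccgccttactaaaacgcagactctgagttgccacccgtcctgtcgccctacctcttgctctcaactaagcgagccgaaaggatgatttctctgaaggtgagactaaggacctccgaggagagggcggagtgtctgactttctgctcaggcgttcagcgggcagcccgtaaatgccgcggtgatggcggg

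The cortex measured most of the pathway well. A probe was detected above the negative controls on all 6 arrays, at a detection p under 0.05, for 29 of the 34 genes with a probe (85.3%), against 43.6% of all named genes on the array. All 30 tested genes were detected on at least 2 arrays of each group, so none passed the filter through 1 group alone. The unprocessed signal of the probe for Acadm, the medium-chain acyl-CoA dehydrogenase, was 18901 to 25585 units in captopril cortex and 20704 to 24855 units in control cortex. The brighter probe of Slc27a2, which takes up and activates very long fatty acids, read 13340 to 19611 units in captopril cortex and 12867 to 16454 units in control cortex. The brightness of different probes was not compared, since each probe binds its target with its own strength. Levels below are background-corrected, quantile-normalized log2 intensities of the brightest tested probe of a gene, unless another probe is named.

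**Figure D1:**
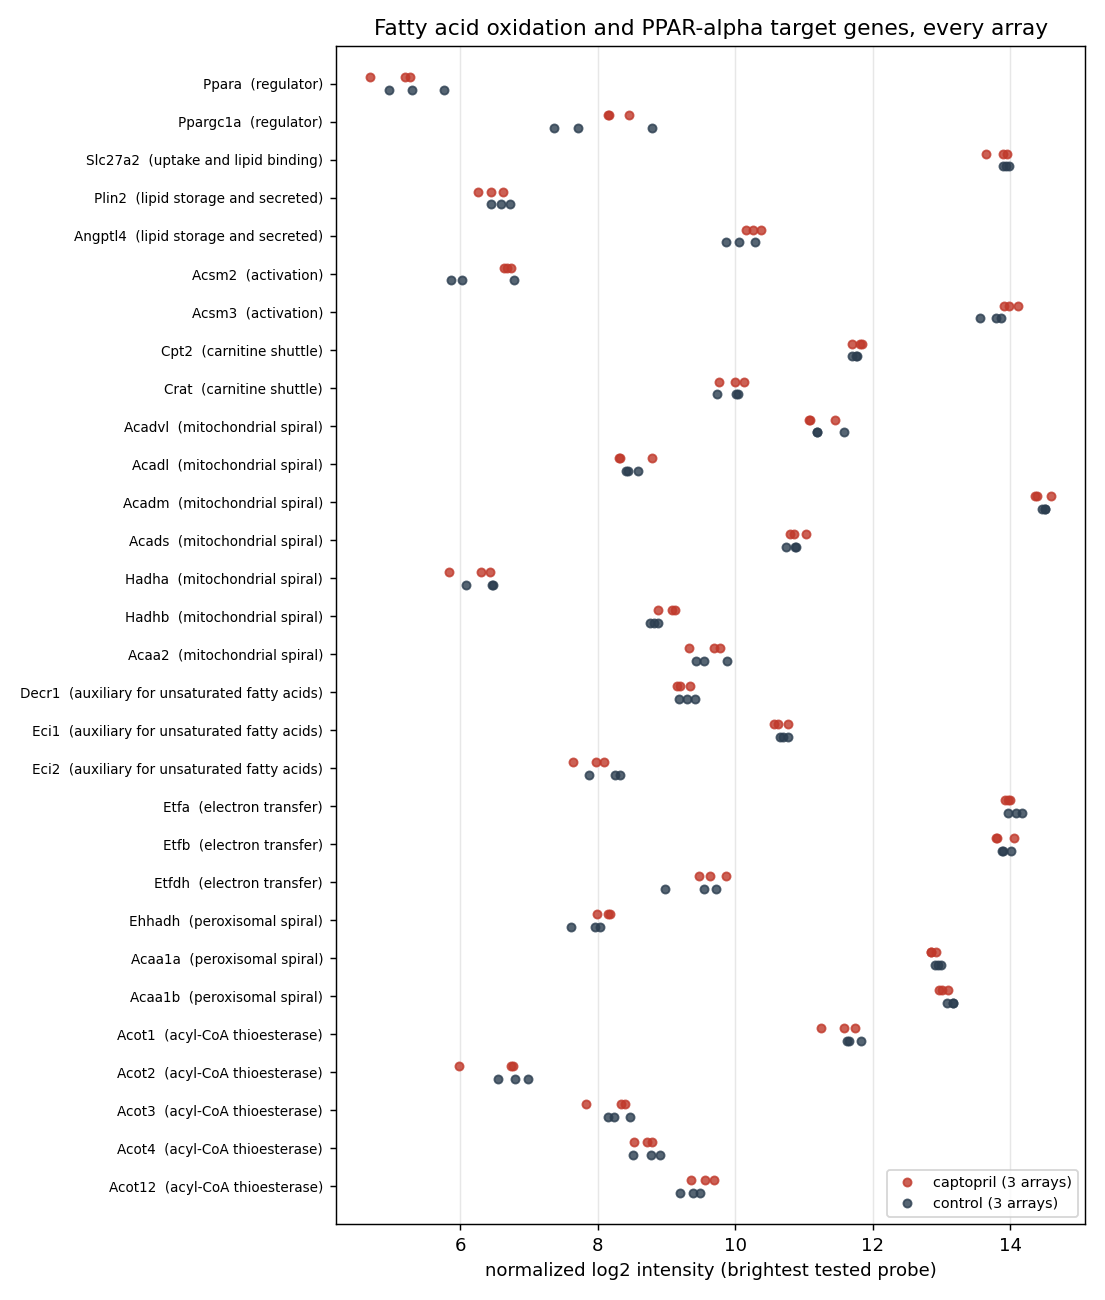
Normalized log2 intensity (x axis) of the brightest tested probe of each of the 30 tested genes (rows, with their role), for 3 captopril arrays (red, upper row of each pair) and 3 control arrays (dark, lower row). In 28 of 30 genes the groups overlap, and the spread of the controls is widest for Ppargc1a, from 7.37 to 8.79.

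The 5 remaining genes gave no tested value. Acsl1, a long-chain acyl-CoA synthetase, had no probe named by the annotation used here. Fabp1, whose window carries the element printed above, was detected on 0 arrays, at 113 to 130 units in captopril cortex and 105 to 133 units in control cortex. Cpt1a, the carnitine palmitoyltransferase that admits long chains to the mitochondrion, was detected on 0 arrays at either of its 2 probes. Cd36, a fatty acid translocase, was detected on 1 captopril array and 0 control arrays. Hadh, the short-chain hydroxyacyl-CoA dehydrogenase, was detected at 1 probe on 0 captopril and 2 control arrays, and at the other on 1 captopril and 1 control array. An undetected probe is not an absent transcript: Gatm, a gene of creatine synthesis that the proximal tubule expresses strongly, was likewise detected on only 2 arrays.

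For both regulators the difference between the groups was smaller than the SD of the control mice. Ppara, the receptor itself, was dim, detected on 2 arrays of each group, and stood at 5.27, 5.19 and 4.68 in captopril cortex, against 5.77, 4.96 and 5.30 in control cortex. The groups overlapped, and the log2 difference was -0.29 (SE 0.24, 95% interval -0.84 to 0.25) and -0.04 in the authors' processed values. It was -0.08 without control array 1, -0.50 without control array 2 and -0.11 without captopril array 3. Ppargc1a encodes a coactivator that drives mitochondrial gene expression. It stood at 8.16, 8.45 and 8.15 in captopril cortex and at 8.79, 7.72 and 7.37 in control cortex. The captopril mice were close to each other, whereas control array 1 lay above all of them and the remaining controls below. The log2 difference was 0.29 (SE 0.33, 95% interval -0.46 to 1.05), it was 0.71 without control array 1 (adjusted p = 0.625 in limma) and 0.001 without control array 3. The second Ppargc1a probe was detected on 0 arrays.

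Among genes of uptake, storage and secretion, Slc27a2 stood at 13.96, 13.89 and 13.65 in captopril cortex and at 13.94, 13.89 and 13.98 in control cortex. The difference was -0.10 (SE 0.13), that of its other probe was -0.02, and the first was -0.01 without captopril array 3, its lowest array. Plin2, the lipid droplet coat protein, averaged 6.44 ± 0.18 in captopril cortex and 6.59 ± 0.14 in control cortex (SD, n = 3 each), a difference of -0.14 (SE 0.15). Leaving out captopril array 2 gave -0.05, leaving out captopril array 1 gave -0.23, and the authors' processed values gave -0.03. Angptl4, a secreted inhibitor of lipoprotein lipase and a PPAR target, stood at 10.16, 10.27 and 10.37 in captopril cortex and at 10.29, 10.06 and 9.87 in control cortex. The groups overlapped through control array 1, and the difference was 0.19 (SE 0.15, 95% interval -0.15 to 0.54), which was 0.30 without that array and 0.09 without control array 3.

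The medium-chain acyl-CoA synthetase genes of the mitochondrial matrix had the smallest unadjusted p-values of the group, without passing the threshold. Acsm2 stood at 6.73, 6.63 and 6.68 in captopril cortex, against 6.78, 5.86 and 6.02 in control cortex. The captopril values lay close together, and control array 1 lay above them all. The log2 difference was 0.46 (SE 0.23, 95% interval -0.07 to 0.99, unadjusted p = 0.0801 and adjusted p = 0.995 in limma). It was 0.74 without control array 1 (adjusted p = 0.625 in limma), 0.19 without background correction and 0.10 in the authors' processed values.

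Acsm3 was measured by 3 tested probes. Its brightest probe read 13.92, 14.11 and 13.99 in captopril cortex and 13.87, 13.57 and 13.80 in control cortex, so the groups did not overlap. The difference was 0.26 (SE 0.14, 95% interval -0.06 to 0.57, adjusted p = 0.995 in limma), and it was 0.27 in the authors' processed values. The probe ILMN_1244261 read 11.80, 11.82 and 11.46 in captopril cortex and 11.48, 11.11 and 11.11 in control cortex, a difference of 0.46 (SE 0.17), with the lowest captopril value just under the highest control value. It was the 1 probe among the 49 tested with an unadjusted p under 0.05 in limma (adjusted p = 0.995), where 4.28% of all tested probes had one. The third probe gave 0.12 (SE 0.34), with captopril arrays spread from 6.89 to 8.47.

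Of the 3 carnitine shuttle genes, 2 were tested and neither passed the threshold. Cpt2, which rebuilds acyl-CoA inside the mitochondrion, stood at 11.82, 11.70 and 11.84 in captopril cortex and at 11.77, 11.70 and 11.76 in control cortex. The difference was 0.05 (SE 0.12, 95% interval -0.23 to 0.32), and its 3 probes ranged from 0.03 to 0.12. Crat, the carnitine acetyltransferase of mitochondria and peroxisomes, differed by 0.03 (SE 0.15, 95% interval -0.32 to 0.39), and its dimmer probes disagreed, at -0.29 and 0.15.

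In the mitochondrial spiral 7 of 8 genes were tested, 2 higher and 5 lower in captopril cortex, with a median of -0.02. The chain-length-specific dehydrogenases differed by -0.12 (SE 0.17) for Acadvl, -0.005 (SE 0.16) for Acadl, -0.04 (SE 0.13) for Acadm and 0.06 (SE 0.13) for Acads. That of Acadvl was 0.02 without control array 2, -0.24 without captopril array 3 and 0.10 at its other probe. Acaa2, the matrix thiolase, differed by -0.02 (SE 0.18), and its other 3 probes by 0.09 to 0.11.

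Hadha and Hadhb, the subunits of the trifunctional protein and neighbours across the stretch printed above, had differences of opposite sign. The gap between these differences was not tested. Hadhb stood at 9.13, 8.88 and 9.08 in captopril cortex and at 8.82, 8.87 and 8.76 in control cortex, a difference of 0.21 (SE 0.13, 95% interval -0.09 to 0.51). The groups did not overlap, though captopril array 2 lay barely above control array 2, and the authors' processed values gave 0.14. Hadha stood at 6.43, 5.84 and 6.30 in captopril cortex and at 6.09, 6.47 and 6.46 in control cortex, a difference of -0.15 (SE 0.19, 95% interval -0.59 to 0.29). That of Hadha turned to 0.02 without captopril array 2, and each interval held zero. The Hadha probe was dim, at 147 to 233 units over the arrays. Its difference was -0.03 in the authors' processed values and -0.06 without background correction.

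Hadhb and Acsm3 were the 2 genes of the 30 (6.67%) whose groups did not overlap, both higher in captopril cortex. Among all named genes 8.73% did not overlap, and 3.98% did so with the higher values in captopril cortex, so the share was near the background.

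The auxiliary enzymes for unsaturated chains were all lower in value, none past the threshold. Eci2, an enoyl-CoA isomerase of mitochondria and peroxisomes, stood at 7.97, 7.64 and 8.08 in captopril cortex and at 8.25, 7.87 and 8.32 in control cortex, a difference of -0.25 (SE 0.18, 95% interval -0.66 to 0.16). Array 2 was the lowest of its group in both. The difference was -0.12 without captopril array 2 and -0.12 in the authors' processed values. Eci1, the mitochondrial isomerase, and Decr1, the dienoyl-CoA reductase, differed by -0.05 (SE 0.12) and -0.06 (SE 0.13).

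Electrons from the dehydrogenases pass through the flavoprotein encoded by Etfa and Etfb to the ubiquinone reductase encoded by Etfdh. Etfdh stood at 9.87, 9.47 and 9.64 in captopril cortex and at 9.72, 8.98 and 9.55 in control cortex, where array 2 was low. The difference was 0.24 (SE 0.21), it was 0.02 without control array 2, and the other Etfdh probe gave 0.32. Etfb differed by -0.04 (SE 0.13). The probes of Etfa disagreed: the brightest gave -0.11 (SE 0.12), and the others gave 0.13 and 0.20. Averaging them turned the difference of Etfa to 0.07.

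**Figure D2:**
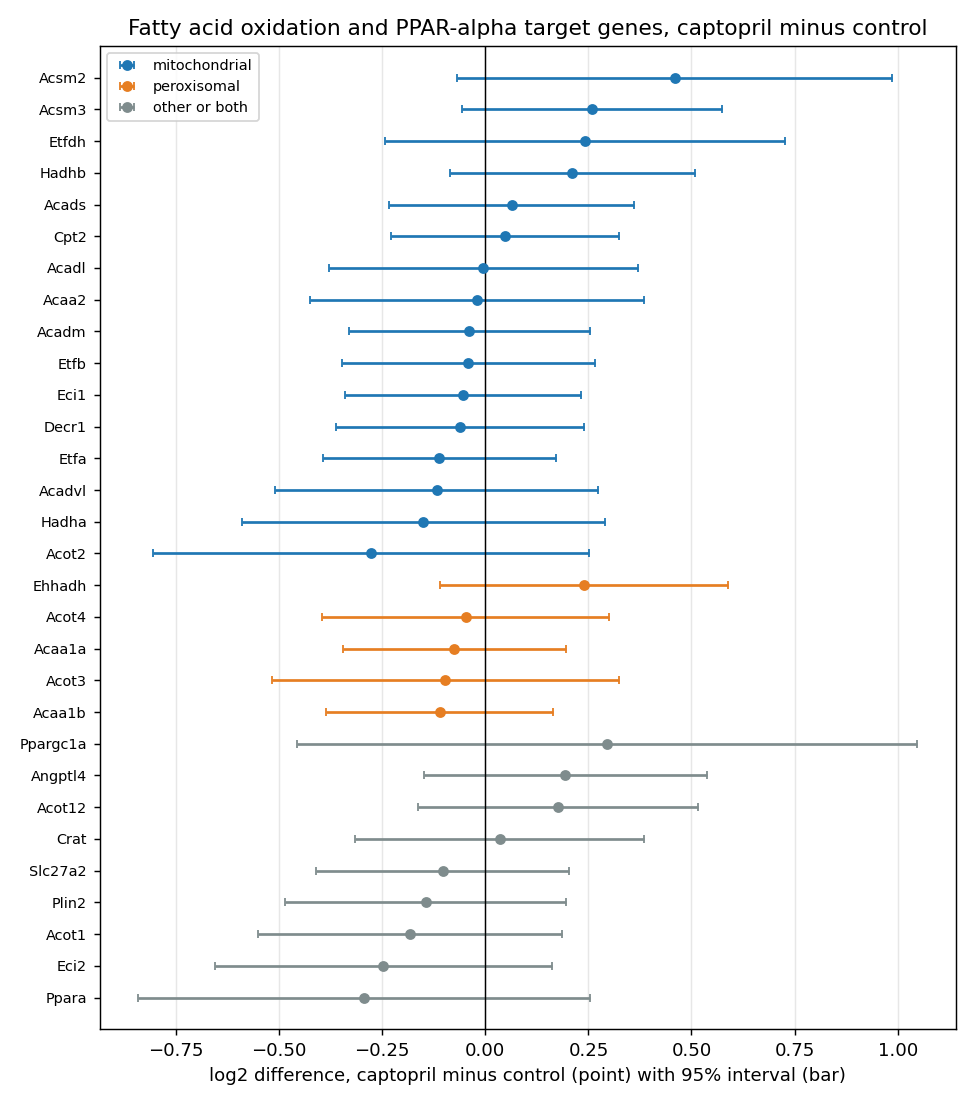
Log2 difference, captopril minus control (x axis), of the 30 tested genes with 95% intervals from limma, n = 3 arrays per group, mitochondrial genes in blue, peroxisomal in orange and the others in grey. Every interval crosses zero, and that of Ppargc1a, from -0.46 to 1.05, is the widest.

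Of the peroxisomal genes, Ehhadh had the largest value. Ehhadh, the bifunctional hydratase and dehydrogenase and a PPAR-alpha target, stood at 8.17, 8.15 and 7.995 in captopril cortex and at 7.96, 8.03 and 7.61 in control cortex. The groups overlapped by a narrow margin, and the difference was 0.24 (SE 0.15, 95% interval -0.11 to 0.59), or 0.11 in the authors' processed values and 0.11 without control array 3. The peroxisomal thiolases Acaa1a and Acaa1b are close copies, and how far their probes tell them apart was not tested. Acaa1a stood at 12.86, 12.92 and 12.86 in captopril cortex and at 12.95, 12.91 and 12.995 in control cortex, a difference of -0.07 (SE 0.12, 95% interval -0.34 to 0.20). Acaa1b stood at 13.01, 12.97 and 13.10 in captopril cortex and at 13.16, 13.09 and 13.16 in control cortex, a difference of -0.11 (SE 0.12, 95% interval -0.39 to 0.16). Both were slightly lower in captopril cortex, with overlapping groups.

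The acyl-CoA thioesterases Acot1 to Acot4 are neighbouring copies of a gene whose products act in the cytosol, mitochondrion and peroxisome, and how far their probes tell them apart was not tested. Acot1, the cytosolic enzyme, stood at 11.74, 11.25 and 11.59 in captopril cortex and at 11.84, 11.63 and 11.66 in control cortex, a difference of -0.18 (SE 0.16), with -0.23 at its other tested probe. Acot2, the mitochondrial enzyme, stood at 6.77, 5.99 and 6.74 in captopril cortex and at 6.79, 6.98 and 6.55 in control cortex, a difference of -0.28 (SE 0.23). Captopril array 2 was the lowest of all 6 arrays in both genes.

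The same array was the lowest for Acot3, a peroxisomal enzyme, which stood at 8.34, 7.83 and 8.39 in captopril cortex and at 8.23, 8.47 and 8.15 in control cortex, a difference of -0.10 (SE 0.18). Acot4, also peroxisomal, stood at 8.79, 8.53 and 8.72 in captopril cortex and at 8.90, 8.78 and 8.51 in control cortex, a difference of -0.05 (SE 0.15). Without captopril array 2 the differences were -0.04 for Acot1, -0.02 for Acot2, 0.08 for Acot3 and 0.03 for Acot4. Acot12, a cytosolic acetyl-CoA hydrolase, differed by 0.18 (SE 0.15), by 0.27 without captopril array 2 and by 0.09 without control array 3. The median of the 5 thioesterases, each centred on its own mean over the 6 arrays, was 0.13, -0.37 and 0.10 on the captopril arrays and 0.16, 0.07 and -0.09 on the control arrays.

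**Figure D3:**
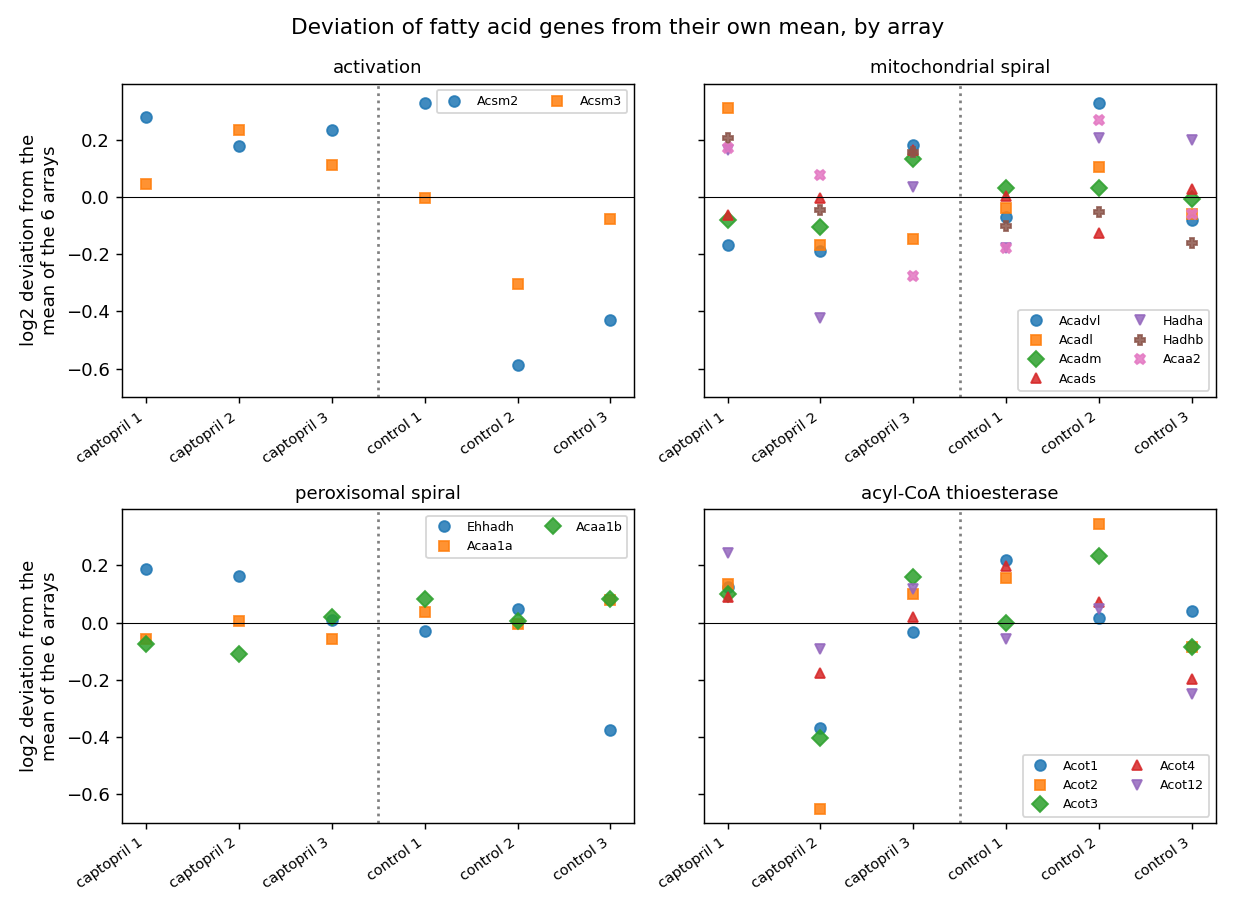
Deviation of each gene from its own mean over the 6 arrays (y axis, log2) on the 3 captopril arrays (left) and the 3 control arrays (right), for 4 roles. Acot1, Acot2 and Acot3 are lowest on captopril array 2, and Acsm2 is as high on control array 1 as on the captopril arrays.

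Over all roles, captopril array 2 held the lowest value of the 6 in 12 of the 30 genes (40.0%), against 16.2% of all named genes tested. Control array 1 was the lowest in 1 of the 30 (3.33%), against 15.9% of all named genes. These counts were made after the values were seen, and members that share a pathway or a sequence are not independent. The adipocyte marker level given below was also lower on captopril array 2 than on the other captopril arrays, though lowest on control array 1. Blood and macrophage markers, centred in the same way, had medians of 0.18, 0.40 and -0.29 on the captopril arrays and -0.19, -0.12 and -0.08 on the control arrays. Podocyte and endothelial markers had medians of -0.06, 0.16 and -0.28 on the captopril arrays and 0.01, 0.07 and 0.08 on the control arrays. The medians of both of these lists were thus highest on captopril array 2, but not every marker was. Nphs1, Podxl, Synpo, Cdh5 and Hba-a1 were highest on a control array. Kdr and Alas2 were highest on captopril array 3, and Lyz1 on captopril array 1. The part of any of these cell types in the pattern was not tested.

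Mitochondrial and peroxisomal genes both had median differences near zero. Of 18 purely mitochondrial genes 16 were tested, 6 higher and 10 lower in captopril cortex, with a median log2 difference of -0.03 and a range of -0.28 to 0.46. Of 5 purely peroxisomal genes 5 were tested, 1 higher and 4 lower, with a median of -0.07 and a range of -0.11 to 0.24. The peroxisomal range lay within the mitochondrial one, and the peroxisomal median minus the mitochondrial one was -0.05, a gap that was not tested. The peroxisomal median rests on 5 genes, 4 of them close copies of another gene of the group, and it was 0.03 without captopril array 2.

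**Figure D4:**
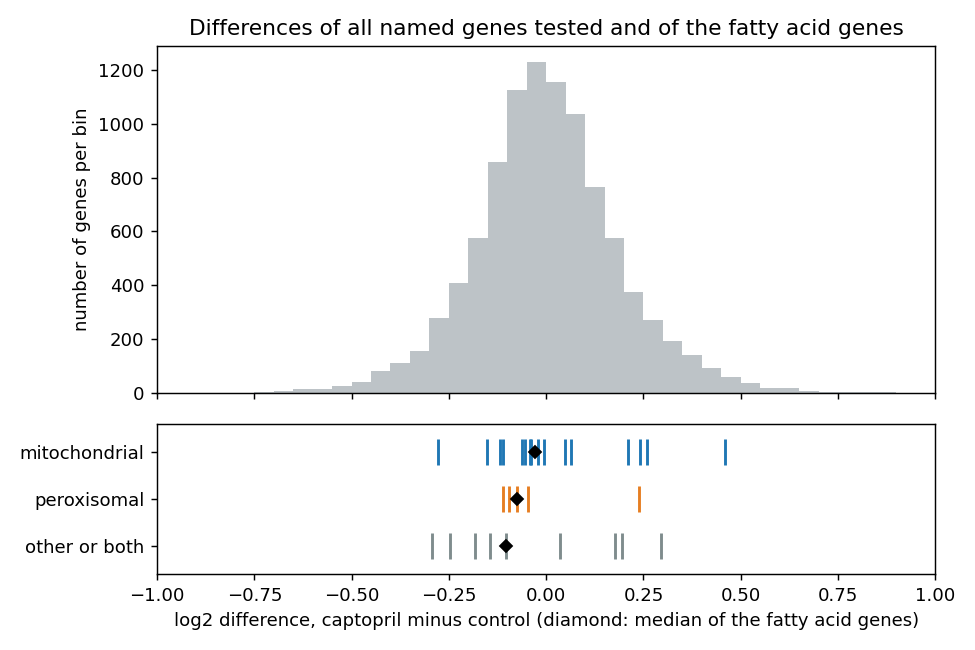
Log2 differences, captopril minus control (x axis), as the number of named genes per bin of width 0.05 (upper panel, of 9718 genes, 4 of them outside the plot) and for single mitochondrial, peroxisomal and other fatty acid genes (ticks, lower panel, with the median as a diamond). The ticks lie within the range of all genes, with Acsm2 farthest out at 0.46, and the diamonds at medians of -0.03 for mitochondrial and -0.07 for peroxisomal genes.

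Different probes of a gene, which can read different transcripts or lie near background, did not always give the same sign. Of 13 genes with several tested probes, 6 had probes of the same sign throughout and 7 did not. The same-sign genes were Acsm3, Cpt2, Etfdh, Acot1, Acot2 and Slc27a2, of which Acsm3, Cpt2 and Etfdh were higher in captopril cortex at each tested probe. The widest span was that of Crat, 0.44 on the log2 scale, which exceeds the difference of all but 1 of the 30 genes, Acsm2 at 0.46.

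**Figure D5:**
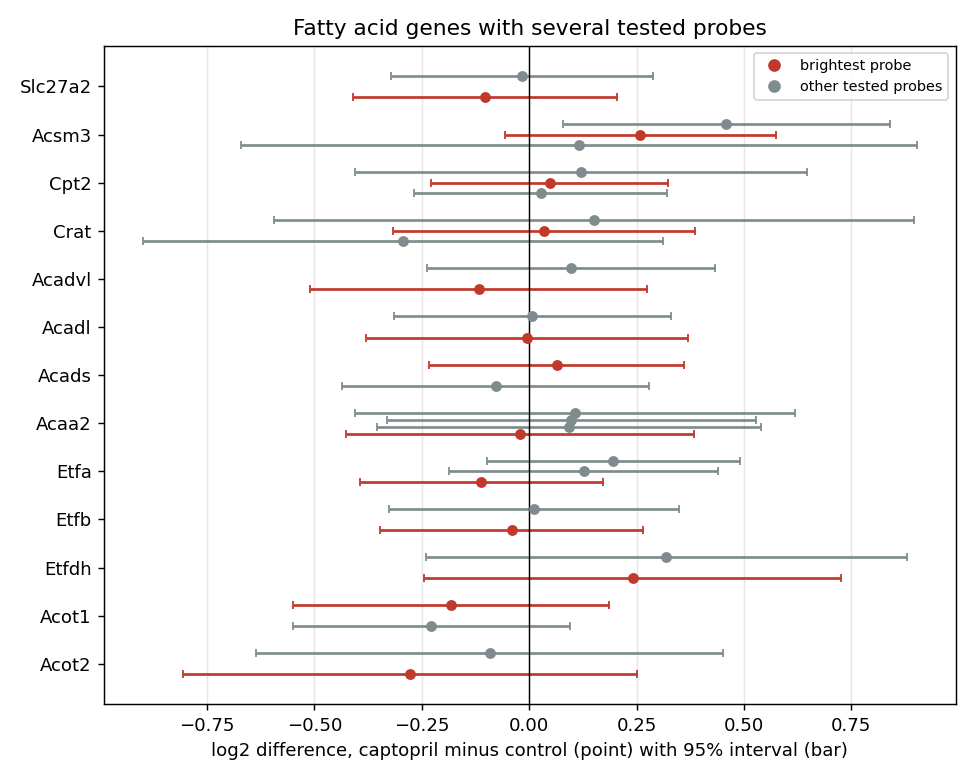
Log2 difference, captopril minus control (x axis), with 95% interval, of each tested probe of the 13 genes with several, with the brightest probe in red and the others in grey. Probes of Etfa lie on both sides of zero, at -0.11, 0.13 and 0.20, whereas all 3 of Acsm3 lie above it.

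The wider pathway was read from 4 further lists, with 0 genes past the threshold in limma. Of 25 other genes of mitochondrial fatty acid and acyl-CoA metabolism 22 were tested, 15 higher and 7 lower, with a median of 0.04. Of these, 2 had an unadjusted p under 0.05 in limma, both higher, where 1.91% of all named genes were higher at that p. Acot13, a mitochondrial thioesterase, stood at 11.46, 11.55 and 11.48 in captopril cortex, above 11.37, 11.02 and 11.14 in control cortex, a difference of 0.32 (SE 0.14). Acot9, another mitochondrial thioesterase, was detected on 3 captopril and 0 control arrays. Its mean was 5.47 ± 0.37 in captopril cortex and 4.61 ± 0.23 in control cortex (SD, n = 3 each, adjusted p = 0.995 in limma). The captopril mean lay 1.34-fold above the detection level of the control arrays, a figure that carries no sampling error. That figure sets the captopril mean against the higher of Acot9 and the dimmest detected probe on each control array. Acot9 passed the filter through the captopril arrays alone, so its place among the 2 genes carries no weight. The dehydrogenase-like genes Acad9 and Acad10 differed by 0.31 (SE 0.15) and -0.26 (SE 0.12), each without overlap between the groups. The groups did not overlap in 5 of the 22 tested genes, Acot9 among them, against 8.73% of all named genes.

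Of 25 other peroxisomal genes 17 were tested, 8 higher and 9 lower, with a median of -0.004. Amacr, the racemase of branched-chain acyl-CoA, had an unadjusted p under 0.05, at 5.25 ± 0.39 in captopril cortex, where 2 of 3 arrays detected it, and 5.79 ± 0.25 in control cortex, a difference of -0.53 (SE 0.22). The reductases Decr2 and Pecr differed by -0.20 (SE 0.14) and 0.27 (SE 0.25), and the coenzyme A hydrolase gene Nudt7 by 0.15 (SE 0.13).

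Of 27 other PPAR-alpha targets 17 were tested, 11 higher and 6 lower, with a median of 0.04, a range of -0.15 to 0.31 and 0 with an unadjusted p under 0.05 in limma. The 4 with the smallest p all had higher values. Plin5, a droplet protein of oxidative tissue, differed by 0.22 (SE 0.14), the lipase inhibitor gene G0s2 by 0.21 (SE 0.14), Pdk4, which restrains pyruvate oxidation, by 0.23 (SE 0.20) and the epoxide hydrolase gene Ephx2 by 0.17 (SE 0.16).

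Of 22 partners and coregulators of the receptor 14 were tested, 9 higher and 5 lower, with a median of 0.02. Pparg, the adipogenic relative of the receptor, had the smallest p, at 6.45, 6.23 and 6.56 in captopril cortex, against 5.62, 6.21 and 5.72 in control cortex. The groups did not overlap, and the difference was 0.57 (SE 0.18, 95% interval 0.14 to 0.99, adjusted p = 0.995 in limma). The obligate partner gene Rxra differed by 0.12 (SE 0.13), the deacetylase gene Sirt1 by 0.31 (SE 0.18) and the orphan receptor gene Esrrg by 0.19 (SE 0.18).

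Pparg, Plin2, Angptl4 and the oxidation genes are also expressed in fat cells, and fat cell markers varied between arrays. Of 16 adipocyte markers 9 were tested, 8 higher and 1 lower in captopril cortex, with a median difference of 0.54. Only 4 of the 9 were detected on all 6 arrays. The largest differences, those of Cox8b, Cidea and Ucp1, came from probes that were not detected on every array. None of the 9 passed the threshold in limma (0 at an adjusted p of 0.05), and Car3 was the 1 marker with an unadjusted p below 0.05. Their median level, each centred on its own mean, was 0.42, -0.48 and 0.49 on the captopril arrays and -0.69, -0.33 and 0.13 on the control arrays. Their summed background-corrected intensity ran from 1283 to 2206 in captopril cortex and from 1056 to 1519 in control cortex. That sum is weighted to Cox7a1, the brightest of the 9 on every array. Its mean log2 intensity was 10.13 in captopril cortex and 9.90 in control cortex. Elovl3, Fabp4, Plin1 and Retn were detected on 0 arrays. Of 15 blood and macrophage markers 9 were tested, 9 higher and 0 lower in captopril cortex, with a median of 0.24. Their summed intensity ran from 14549 to 20549 in captopril cortex and from 10932 to 19215 in control cortex. This sum is weighted to the haemoglobin gene Hba-a1, the brightest of these markers on every array. Of 11 podocyte and endothelial markers 9 were tested, 3 higher and 6 lower, with a median of -0.08, and their summed intensity ran from 5165 to 7471 in captopril cortex and from 6168 to 6823 in control cortex. None of them passed the threshold in limma, and 1 had an unadjusted p below 0.05, the podocyte gene Nphs1 at -0.48 (SE 0.19). Of 13 markers of the loop, distal tubule and collecting duct 12 were tested, 8 higher and 4 lower, with a median of 0.04. None passed the threshold in limma, and 1 had an unadjusted p below 0.05, Pvalb at 0.36 (SE 0.15). Such a p was found for 3.69% of all named genes tested, the share to set beside Car3, Nphs1 and Pvalb. The part of these cell types in the values of Pparg and the oxidation genes was not tested. A limma fit took as a covariate the mean of the centred adipocyte markers on each array, not the median given above. It left 0 of the 30 genes past the threshold, and 1 had an unadjusted p under 0.05, the dim Hadha at -0.39. The share of all named genes at that p in this fit is not given, so the count is not read as a result. As for the labelled tissue, 14 of 16 proximal tubule markers were tested, 13 of them detected on all 6 arrays, with a median difference of 0.04.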

How the data were processed

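The deposited scanner table gives linear signal intensity for each of 45281 probes on every array, per the file headers, neither background-subtracted nor normalized between arrays (median signal 111 to 147). It also gives a detection p-value for each deposited signal, per the file headers. A second deposited table holds values that the authors processed, which resemble log2 values, and the submitters' processing notes name lumi. The transform behind it is unstated in the labels, each column had a median of 7.94 and ranked the probes as its own array did, and it was used only as an alternative.

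Intensities were background-corrected and quantile-normalized with limma 3.58.1 in R 4.3.3 (neqc, offset 16, negative controls taken from the detection p-values). The 16500 probes with a detection p under 0.05 on 3 or more of 6 arrays were tested. lmFit and eBayes compared captopril with control, 3 arrays each, in a two-sided test with no covariate, and p-values were adjusted over all tested probes by the Benjamini-Hochberg method. The smallest p that an exact permutation of these groups allows is 0.1. The fit was tested on simulated data. Between 36.2% and 38.2% of probes were detected per array, and the number of arrays limits the precision. Arrays correlated at 0.984 to 0.987 over tested probes, and 0 pairs were identical.

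GEO's platform annotation gave 34885 probes 1 symbol, 18 several and the rest none. Of the named probes, 34807 matched RefSeq by gene ID, with 0 symbols updated. A gene is represented by its brightest tested probe. Every tested gene of the 35 is named. Values on all arrays are given for the 6 smallest unadjusted p-values, both regulators, gene copies and 1 gene per role, and each list of other pathway genes gives up to 4 with the smallest p. Genes, lists and rules were chosen with earlier results of these data known.

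Same-numbered captopril and control arrays did not deviate together (r of 0.004, 0.01 and 0.04 over tested probes), so replicate numbers were not used as pairs. Alternatives were other background corrections, scaling, filters, models and probe averaging, and leaving out arrays. The adipocyte covariate and leaving out captopril arrays 1 and 3 were chosen after seeing the data.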

Additional observations from a re-analysis of the deposited data

How the results depend on the processing

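Across 17 alternatives, 0 of the 30 fatty acid genes passed the threshold in limma under any, and their lowest adjusted p was 0.625. The count of genes with an unadjusted p under 0.05 was 1 without background correction, with normexp and without the filter. That count was also 1 with trend and robust options and with the adipocyte covariate. In the authors' values it was 2, and it ran from 0 to 2 with 1 array left out. Of all named genes 3.69% had such a p in the main fit. Their share under each alternative is not given, so these counts are not read as a result about the group. The count of 3 probes past the threshold on the whole array was 5 with trend and robust options, 0 with the replicate block and 0 without captopril arrays 1 and 3. It was 2 with any 1 array left out. The peroxisomal median ran from -0.10 to 0.03 with 1 array left out, the highest (0.029) without captopril array 2, and was -0.17 without captopril arrays 1 and 3 (a single captopril array, taken to have the spread of the control arrays). The cause of these shifts was not tested. Of 509 differences of single genes under an alternative, 496 moved by less than the SD between replicates and 13 by more. Of the 509, 27 changed sign, in 13 genes, each within 0.18 of zero as reported. The other filters, the trend and robust options and the replicate block left every difference they gave unchanged. So did probe averaging for genes with a single tested probe. These cases are counted among the 496, so that count overstates how stable the differences were. Dim probes, such as those of Ppara, Acsm2, Hadha and Acot2, gave smaller differences without background correction. Ppara has no value under the stricter detection filter.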
